A study of Rattus norvegicus with 2 samples.

Results

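The miR-30 family was described in 2 pooled small RNA libraries of rat hippocampus, 1 from animals after status epilepticus (SE) and 1 from control animals. Its members were taken by name, as every miRNA of the deposited table called rno-miR-30 with a letter from a to e and any copy or arm suffix. This gave 10 of the 390 listed miRNAs, 5 from the 5p arm and 5 from the 3p arm of their hairpins. For miR-30d only the 5p arm is among the listed miRNAs.

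Both libraries were made from male Wistar rats aged 5 months with electrodes implanted at the right amygdala. The left hippocampus was taken for RNA after perfusion with saline. In the experimental group SE was induced by stimulating the amygdala for 20 min, and tissue was collected 24 hours later. Per the study, stimulation was resumed in rats that did not then meet its criteria of SE. The control group had the same surgery and sham handling without current. The study used 6 rats per group and pooled their RNA, and the number of rats in each pool is not given. Single animals were not sequenced, which leaves every difference below without a replicate check, and a lower read number of a miRNA cannot be told apart from a loss of the cells that hold it.

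The miR-30 miRNAs are an old vertebrate family made from several precursors. The 5p arms carry the same seed, the stretch near the 5′ end that pairs with target mRNAs, and are the strands usually loaded into Argonaute. The 3p arms come from the opposite strand of the same hairpins, have other seeds and therefore other predicted targets. Of the 5p arms, miR-30a-5p is known to repress Beclin 1, a factor of autophagy, and brain-derived neurotrophic factor, a neuronal growth factor.

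RefSeq mature sequences (GRCr8) matched 6 of the 10 members by name. They are shown 5′ to 3′, with the seed (bases 2 to 8) in capitals, because the seeds separate the members into 5p and 3p groups. The last lines give both arms of miR-384, which is not a member by name.
miR-30a-5p: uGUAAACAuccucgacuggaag
miR-30c-5p: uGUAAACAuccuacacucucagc
miR-30e-5p: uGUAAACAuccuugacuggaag
miR-30a-3p: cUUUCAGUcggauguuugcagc
miR-30c-1-3p: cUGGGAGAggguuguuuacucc
miR-30c-2-3p: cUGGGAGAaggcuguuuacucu
miR-384-5p: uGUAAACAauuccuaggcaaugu
miR-384-3p: aUUCCUAGaaauuguucacaau

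All 3 of the 5p sequences shared the seed GUAAACA and began with U. Among the 297 of 328 known miRNAs of the table that had a sequence, 4 had this seed, the other being miR-384-5p. The 3 sequences of the 3p arms began with C and fell under 2 seeds. UGGGAGA was shared by both miR-30c 3p arms, and UUUCAGU was held by miR-30a-3p alone among those sequences. The 3p arms of miR-30b and miR-30e had no matched sequence, so their seeds were not compared. Between miR-30a-5p and miR-30e-5p the single difference was C13U, counted from the 5′ end with the base of miR-30a-5p first. The 3p arms of miR-30c-1 and miR-30c-2 differed at 3 positions (G9A, U12C and C22U). The rules by which the authors' counting assigned reads of such close sequences are not given in the sources used here.

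The hairpins lie in pairs. Mir30a and Mir30c2 neighbour each other on rat chromosome 9, Mir30c1 and Mir30e on chromosome 5, and Mir30b and Mir30d on chromosome 7 (GRCr8 annotation, other miRNA genes within 50 kb). The protein-coding gene Nfyc, a subunit of a CCAAT-binding transcription factor, spans both Mir30c1 and Mir30e. The 3 hairpins below are shown with their mature arms in capitals, since their arms moved apart between the libraries. Mir30a lies at chr9:33233941-33234011 on the plus strand, Mir30c2 at chr9:33253682-33253765 on the plus strand and Mir30c1 at chr5:139634455-139634543 on the minus strand.
Mir30a: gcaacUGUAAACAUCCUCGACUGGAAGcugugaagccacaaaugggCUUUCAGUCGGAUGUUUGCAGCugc
Mir30c2: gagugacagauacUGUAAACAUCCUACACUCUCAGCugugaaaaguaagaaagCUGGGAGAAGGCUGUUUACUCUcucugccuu
Mir30c1: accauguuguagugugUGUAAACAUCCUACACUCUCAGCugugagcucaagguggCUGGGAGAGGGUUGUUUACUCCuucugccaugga
The miR-30c-5p sequence is the same in Mir30c1 and Mir30c2, so that its reads cannot be assigned to one of them, whereas their 3p sequences differ.

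The counts of the table summed to 5678090 for the SE library and 6703056 for the control library. Levels are expressed per 1000000 clean reads (CPM), with the clean reads taken from the study, and 1 count was worth 0.138 and 0.114 CPM. Neuron-enriched miRNAs marked the tissue, with 4 of 5 listed in the table and a summed level of 37608 CPM after SE and 44561 in the control group. Of these 4, miR-128-3p was lower after SE (log2 ratio -0.45) and the other three were higher (0.46 to 1.09). The 2 erythrocyte miRNAs found of 3 summed to 28.7 and 13.0 CPM, a log2 ratio of 1.14. MiR-451-5p carried this ratio (1.24, 196 and 100 counts), whereas miR-144-3p was at 0.048 (12 and 14 counts). The summed log2 ratio was 0.31 for microglia and inflammation (2 of 3 found, miR-21-5p at 0.33 and miR-146a-5p at -0.25). It was -0.073 for leukocytes (2 of 4 found, at -0.48 and 0.039). For oligodendrocyte miRNAs (3 of 3) it was -0.023, with single values from -0.48 to 0.070. Muscle miRNAs (3 of 3) summed to 246 and 266 CPM, and the liver miRNA miR-122-5p was at 16.8 and 10.6 CPM. The part of these in the differences below was not tested.

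Taken by reads, the family was small and dominated by 2 of its 5p arms. MiR-30d-5p was read 5527 times after SE and 4976 times in the control library, or 763 and 570 CPM, and ranked 39th and 42nd of the 390 miRNAs. MiR-30a-5p had 4426 and 4709 counts, or 611 and 539 CPM, and ranked 44th and 43rd. These arms made up most of the 5p reads, which together came to 11488 and 10972 counts, 0.202% and 0.164% of all counts in the table.

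The remaining 5p arms were lower. MiR-30e-5p was read 798 and 660 times, in this order, at 110 and 75.5 CPM. MiR-30c-5p had 673 and 538 counts, at 92.9 and 61.6 CPM. MiR-30b-5p had 64 and 89 counts, at 8.84 and 10.2 CPM, so that its level was far under that of its neighbour miR-30d-5p in both libraries. Levels of different miRNAs also depend on how well each sequence is ligated and amplified, so their order is one of reads and not of molecules.

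Among the 3p arms, miR-30a-3p and miR-30c-2-3p were the most abundant. MiR-30a-3p was read 465 times after SE and 319 times in the control library, at 64.2 and 36.5 CPM. MiR-30c-2-3p had 400 and 538 counts, at 55.2 and 61.6 CPM, and thus the same control count as miR-30c-5p.

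The order of these 3p arms differed between the libraries. In the control group miR-30c-2-3p lay above miR-30a-3p, and after SE it lay below it.

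The other 3p arms stayed under 20 CPM. MiR-30e-3p had 122 and 86 counts, at 16.8 and 9.84 CPM. MiR-30c-1-3p had 58 and 104 counts, at 8.01 and 11.9 CPM, and miR-30b-3p had 53 and 33 counts, at 7.32 and 3.78 CPM.

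**Figure D1:**
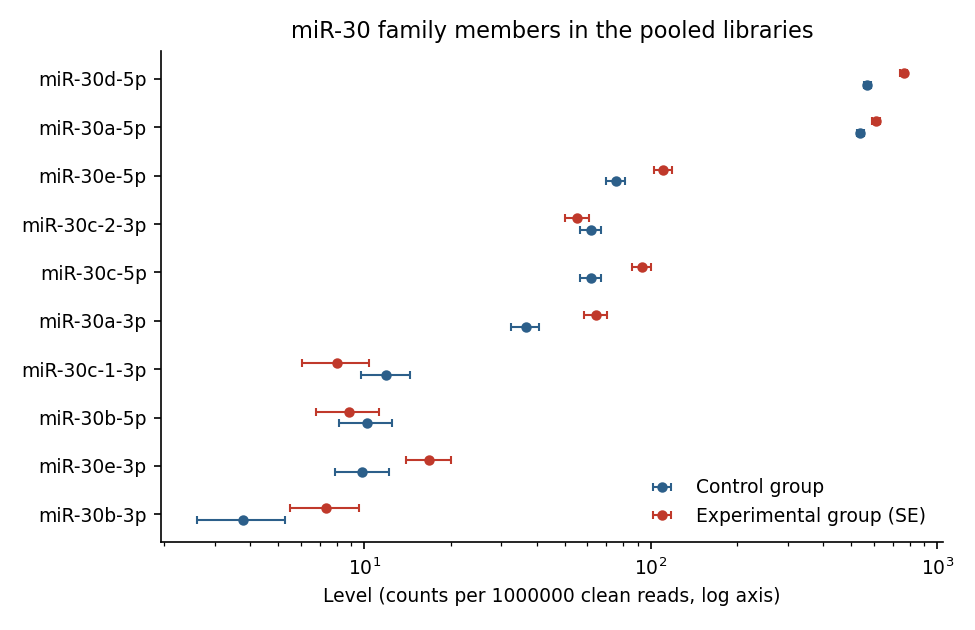
Level of each miR-30 member in counts per 1000000 clean reads (log axis), with 1 point per pooled library and exact 95% Poisson intervals, which cover counting error only. MiR-30d-5p and miR-30a-5p lie far above the other members in both libraries, and the experimental point lies left of the control point for miR-30c-2-3p, miR-30c-1-3p and miR-30b-5p.

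The first question was whether the members differed between the group after SE and the control group. A log2 ratio was taken of the CPM after SE over that of the control, with an exact 95% Clopper-Pearson interval. Such an interval covers counting error, compares these libraries and not the conditions, and leaves out variation between animals. All 10 members had at least 30 counts in either library, as did 285 miRNAs of the whole table.

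For 7 of the 10 members the interval lay above 0, against 40.4% of the 285 miRNAs. For 1 member it lay below 0, against 22.8% of the 285. A log2 ratio beyond 1 was reached by 0 of the 10 members, whereas 10.2% of the 285 were higher by more than this and 2.11% were lower. The median log2 ratio was 0.48 over the members and 0.10 over all 285. Of the members, 7 were above 0 and 3 below, against 169 and 116 of the 285. The balance depended on the scaling. With the counts left unscaled, 6 members had an interval above 0 and 3 below, against 23.2% and 41.1% of the 285. With the TMM normalization of edgeR these were 6 and 2 members, against 28.4% and 35.1%. Under an assumed coefficient of variation of 0.2 between pools, edgeR's exact test gave 0 members in either direction at an unadjusted p under 0.05. By the same rule 13.0% of the 285 passed as higher and 2.11% as lower.

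Of the 5p arms, 4 of 5 were higher after SE and their intervals left out 0, against 40.4% of the 285 miRNAs. Among known miRNAs of the table, the median log2 ratio was 0.17 over the 128 tested 5p arms and 0.019 over the 121 tested 3p arms. Of the miR-30 5p arms, miR-30c-5p had the highest log2 ratio, 0.59 (95% interval 0.43 to 0.76), a fold of 1.51. MiR-30e-5p was at 0.54 (interval 0.39 to 0.70) and miR-30d-5p at 0.42 (interval 0.37 to 0.48). The interval of the difference between miR-30c-5p and miR-30e-5p was -0.18 to 0.27, and that between miR-30d-5p and miR-30e-5p was -0.28 to 0.038. For miR-30c-5p against miR-30d-5p it was -0.0036 to 0.35, so that these 3 were not told apart by counting error.

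MiR-30a-5p had a lower log2 ratio than these. It was 0.18 (95% interval 0.12 to 0.24), which lay under that of miR-30d-5p by 0.24 (interval of the difference -0.32 to -0.16) and under that of miR-30e-5p by 0.36 (-0.53 to -0.20), although miR-30a-5p and miR-30e-5p differ by 1 base. With the counts left unscaled its log2 ratio was -0.089, and with TMM it was 0.0018, so that its direction depended on the scaling. MiR-30b-5p was at -0.20 (interval -0.69 to 0.27), for which no change was detectable at this depth. It lay under miR-30d-5p, from the neighbouring hairpin, by 0.63 (interval of the difference -1.12 to -0.14).

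The 3p arms spread more widely. MiR-30b-3p was at 0.95 (95% interval 0.30 to 1.63), miR-30a-3p at 0.81 (0.61 to 1.02) and miR-30e-3p at 0.78 (0.37 to 1.19). These 3 were also above 0 without scaling, at 0.68, 0.54 and 0.50. A higher log2 ratio than that of these 3 arms was found for 32, 46 and 48 of the 285 miRNAs.

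The 3p arms of miR-30c went the other way. MiR-30c-1-3p was at -0.57 (95% interval -1.06 to -0.095), and 20 of the 285 miRNAs had a lower log2 ratio. MiR-30c-2-3p had -0.16 (interval -0.35 to 0.033), which was not past counting error with the clean reads and was -0.34 (interval -0.53 to -0.15) with TMM. The interval of the difference between both 3p arms, which share a seed, was -0.94 to 0.10. MiR-30a-3p and miR-30c-2-3p come from neighbouring hairpins on chromosome 9, and their log2 ratios differed by 0.97 (interval 0.69 to 1.26), a difference on which the scaling has no bearing.

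**Figure D2:**
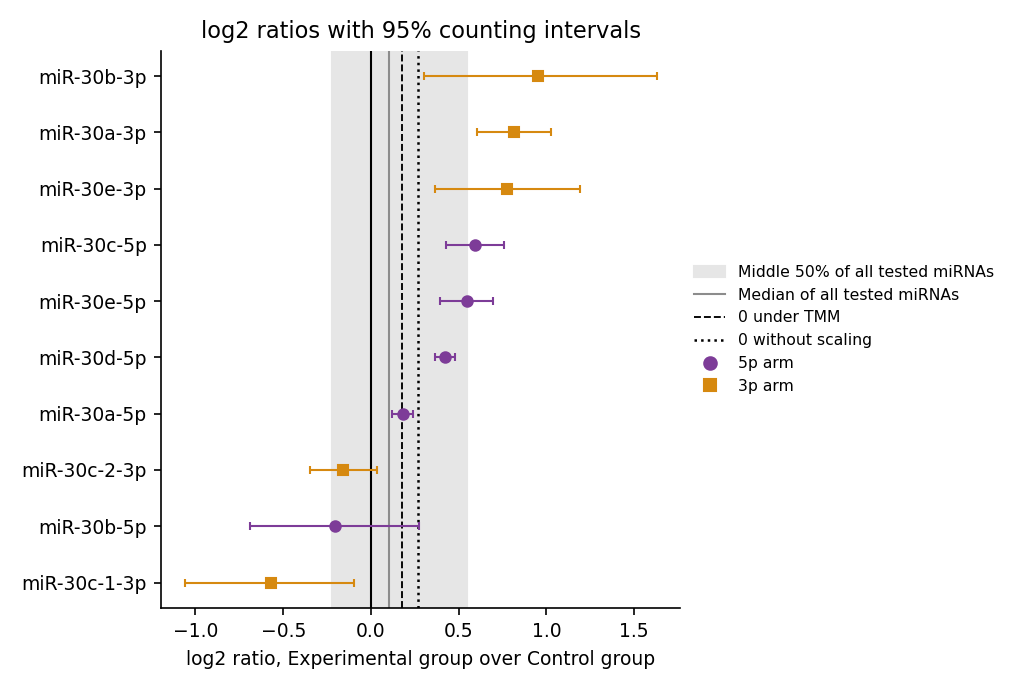
The log2 ratio of each member after SE over control, with 95% counting intervals, circles for 5p arms and squares for 3p arms, against the middle 50% and the median of all 285 tested miRNAs. Dashed and dotted lines show where 0 would lie under TMM and without scaling, and miR-30a-5p at 0.18 lies on the first and left of the second.

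Reads were then summed over each arm. The 5p arms together reached 1586 CPM after SE against 1256 CPM in the control library, giving a log2 ratio of 0.34 (95% interval 0.30 to 0.37). The 3p arms summed to 1098 and 1080 counts, or 152 and 124 CPM, which gave 0.29 (interval 0.17 to 0.42). The sum of the 3p arms was not past counting error without scaling (0.024) or with TMM (0.12). The log2 ratio of the 3p sum less that of the 5p sum was -0.042 (interval -0.17 to 0.086), while the single 3p arms ranged from -0.57 to 0.95.

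Within the 5p reads the composition shifted slightly. The share of miR-30d-5p was 48.1% after SE (95% exact Clopper-Pearson interval 47.2 to 49.0), against 45.4% of control reads (44.4 to 46.3). The share of miR-30a-5p was 38.5% (37.6 to 39.4) and 42.9% (42.0 to 43.9). The former was thus the larger in both libraries, by a wider margin after SE. Among the 3p reads miR-30a-3p took 42.3% after SE (39.4 to 45.3) and 29.5% in the control library (26.8 to 32.4). MiR-30c-2-3p took 36.4% (33.6 to 39.4) and 49.8% (46.8 to 52.8). The leading 3p arm was thus miR-30c-2-3p in the control group and miR-30a-3p after SE.

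The second question was whether the arms of one hairpin moved together. The share of the 3p arm among the reads of both arms does not depend on the scaling. Arm and library were crossed in a two-sided Fisher's exact test for the 104 hairpins of the table with both arms, with p-values adjusted over all 104 by the Benjamini-Hochberg method. It compares these libraries, and variation between animals does not enter it. Copies of a hairpin with a shared arm, as for miR-30c, were summed.

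In 2 of the 4 miR-30 hairpins with both arms the 3p share was higher after SE at an adjusted p under 0.05, against 12.5% of the 104 hairpins. In 1 it was lower by the same rule, against 23.1% of the 104. The shifts thus went in both directions.

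For miR-30a the 3p share was 9.51% after SE (95% exact Clopper-Pearson interval 8.70 to 10.4), against 6.34% of control reads (5.69 to 7.05). The 3p to 5p ratio changed by 0.63 on the log2 scale (interval 0.42 to 0.85; Fisher's exact test, adjusted p = 6.0e-08). The 5p arm was the major arm in both libraries.

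For miR-30b the 3p share was 45.3% after SE (interval 36.1 to 54.8), against 27.0% of control reads (19.4 to 35.8). The log2 change of the ratio was 1.15 (interval 0.33 to 1.99; Fisher's exact test, adjusted p = 0.015). It rested on 117 and 122 reads, the fewest of the 4 hairpins, and its interval was the widest.

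For miR-30c the direction was opposite. Its 3p arms took 40.5% of the reads after SE (interval 37.6 to 43.4), against 54.4% of control reads (51.5 to 57.3), so that the 3p side held most reads in the control library and the 5p side after SE. The log2 change of the ratio was -0.81 (interval -1.05 to -0.57; Fisher's exact test, adjusted p = 3.7e-10). Set against miR-30c-5p alone, the 3p arm of miR-30c-1 changed by -1.16 (interval -1.68 to -0.66) and that of miR-30c-2 by -0.75 (interval -1.0 to -0.50).

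For miR-30e the 3p share was 13.3% (interval 11.1 to 15.6) after SE, against 11.5% (9.33 to 14.0) in the control group. The log2 change of 0.23 (interval -0.21 to 0.67; Fisher's exact test, adjusted p = 0.47) was within counting error, so that both arms of miR-30e were higher after SE without a detectable shift between them.

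**Figure D3:**
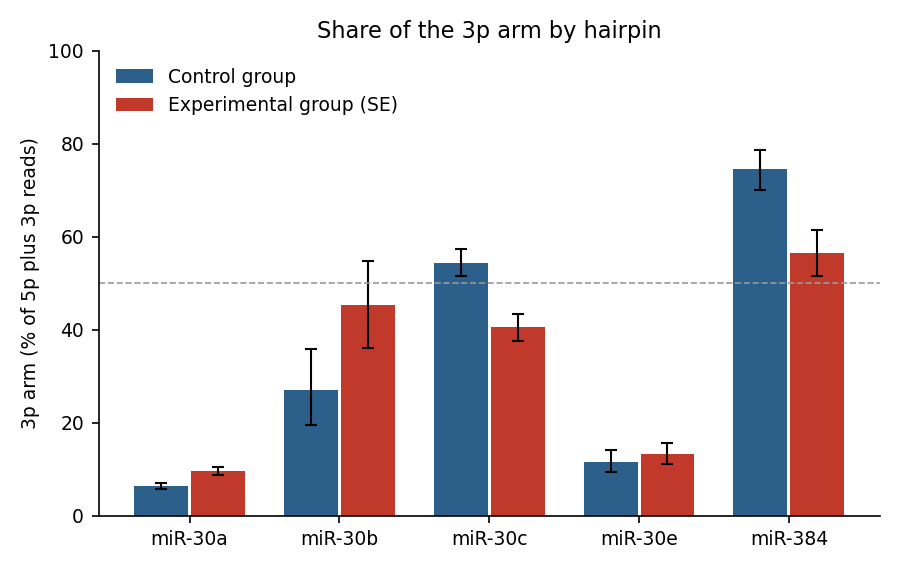
Share of the 3p arm among the 5p and 3p reads (%) of the 4 miR-30 hairpins with both arms and of miR-384, per pooled library, with exact 95% Clopper-Pearson intervals. The share is higher after SE for miR-30a and miR-30b, lower for miR-30c and miR-384, and the intervals of miR-30e overlap.

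Summed over the 4 hairpins, the opposite shifts cancelled. The log2 change of the 3p to 5p ratio was 0.032 (95% interval -0.10 to 0.17). Without miR-30a it was -0.52 (interval -0.71 to -0.33), and without miR-30c it was 0.59 (0.41 to 0.78).

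Both arms of a hairpin were also added up, a step chosen after the data had been seen. MiR-30a came to 4891 reads after SE against 5028 control reads, at a log2 ratio of 0.23 (95% interval 0.17 to 0.29). MiR-30c came to 1131 and 1180 reads, with 0.21 (0.091 to 0.33), and miR-30b to 117 and 122 reads, with 0.21 (-0.17 to 0.59). The arm sums of these 3 thus lay between 0.21 and 0.23, although the 3p share was higher after SE for miR-30a and miR-30b and lower for miR-30c. The interval of the difference between miR-30a and miR-30c was -0.11 to 0.15. The sum of miR-30e, with 920 and 746 reads, was at 0.57 (0.43 to 0.71) and lay above that of miR-30a by 0.34 (interval of the difference 0.19 to 0.49). Without scaling the sums of miR-30a, miR-30b and miR-30c had log2 ratios of -0.040, -0.060 and -0.061, and that of miR-30e had 0.30.

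**Figure D4:**
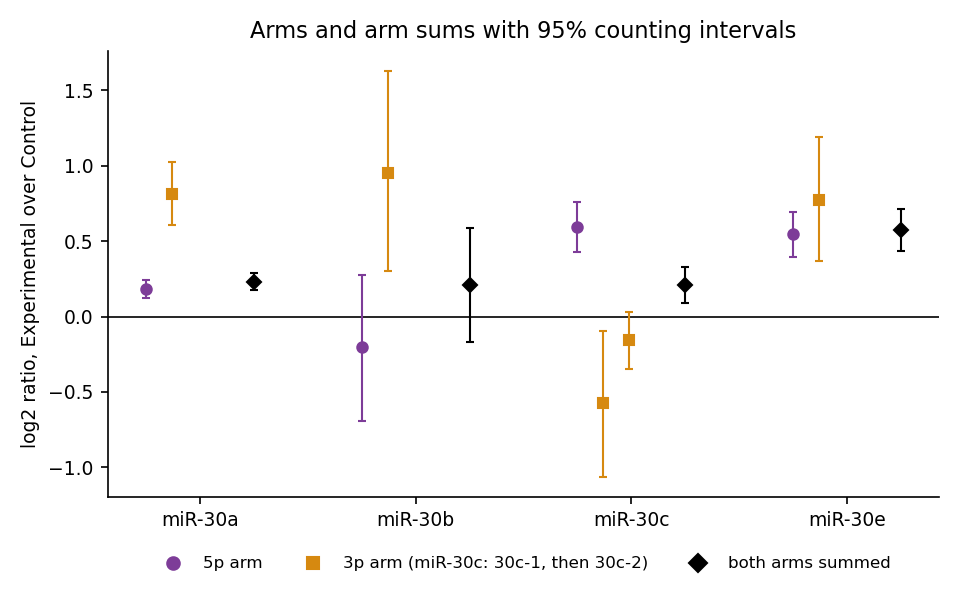
The log2 ratio after SE over control for the 5p arm, the 3p arms and both arms summed of each miR-30 hairpin, with 95% counting intervals. The sums of miR-30a, miR-30b and miR-30c lie at 0.21 to 0.23, whereas their 3p arms range from -0.57 to 0.95.

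The size of the shifts was set beside all hairpins. No minimum of reads was set here, and 79 of the 104 had at least 30 reads on each arm over both libraries. Changes of sparsely read arms carry more counting error. In size, the change of miR-30b was exceeded by 15 of the 104 hairpins, that of miR-30c by 32, that of miR-30a by 42 and that of miR-30e by 78. The median size over the 104 was 0.53. The miR-30 hairpins therefore lay within the range of the table, on both sides of 0.

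**Figure D5:**
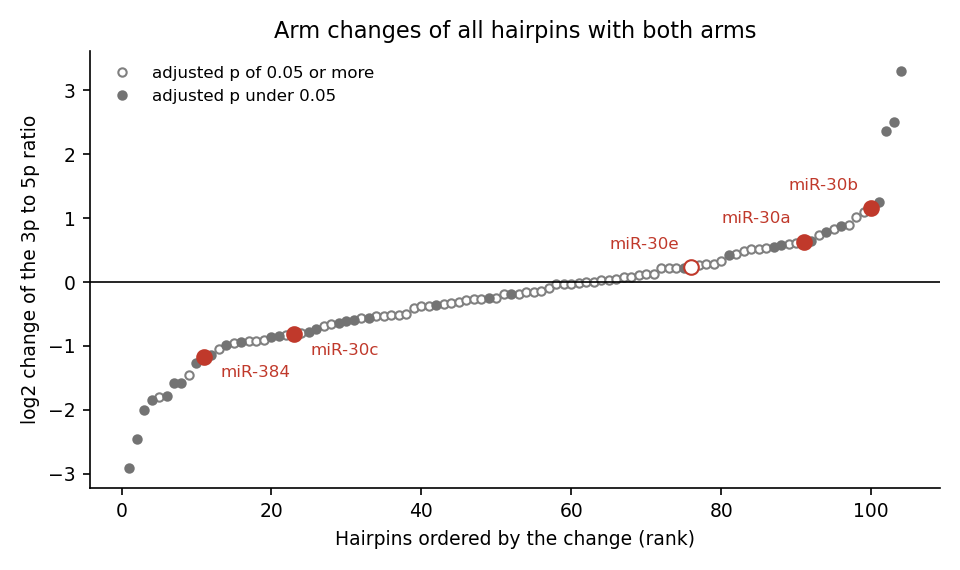
The log2 change of the 3p to 5p ratio after SE for all 104 hairpins with both arms, ordered by rank, with filled points where the adjusted p was under 0.05 (0.5 was added to each count for hairpins other than those marked). MiR-30b at 1.15 and miR-30a at 0.63 lie above 0, miR-30c at -0.81 and miR-384 at -1.17 below it.

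MiR-384-5p, which shares the seed of the 5p arms (sequences above), is known from work on synaptic plasticity in hippocampal neurons. It was read 172 times after SE and 110 times in the control library, at 23.8 and 12.6 CPM, and a log2 ratio of 0.92 (95% interval 0.56 to 1.27). Its log2 ratio lay above that of miR-30a-5p by 0.73 (interval of the difference 0.38 to 1.10), and was not told apart from miR-30c-5p (-0.071 to 0.72). MiR-384-3p had 224 and 322 counts. The 3p share of miR-384 was 56.6% after SE (interval 51.5 to 61.5), against 74.5% of control reads (70.2 to 78.6), and the log2 change was -1.17 (interval -1.61 to -0.73; Fisher's exact test, adjusted p = 4.5e-07). Adding miR-384-5p to the 5p arms of the family gave 1610 and 1268 CPM, a log2 ratio of 0.34 (interval 0.31 to 0.38).

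Other families of several paralogues were compared by the sum of their major arm, with the interval of the difference added after the data had been seen. The 5p arms of let-7 and miR-98, which held 82.5% of all counts in both libraries, had a summed log2 ratio of 0.030, and those of miR-30 lay above it by 0.31 (95% interval 0.27 to 0.34). The 3p arms of miR-29 were at -0.22, and the 5p arms of miR-30 lay above them by 0.56 (0.52 to 0.59). The 5p arms of miR-181 were at 0.88, and those of miR-30 lay under it by 0.54 (interval of the difference -0.59 to -0.49). These differences do not depend on the scaling, but their intervals too cover counting error only.

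Of the 70 other known miRNAs with at least 1000 counts in both libraries, the 3 with a log2 ratio nearest to that of the summed 5p arms were miR-21-5p (0.33), miR-448-3p (0.35) and miR-26a-5p (0.35). Their likeness, the absolute difference of the log2 ratios, was 0.011, 0.013 and 0.016, and it rests on 2 libraries.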

How the data were processed

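Small RNA of pooled hippocampal RNA was sequenced, 1 library per group. The values the authors deposited are raw read counts per miRNA, whole numbers without scaling, whatever the table's header says of normalized signal. Per the text of the study, low-quality, short and single-read sequences were discarded and clean reads of 18 to 30 nt kept. The submitters' processing notes name the genome build rn5. The aligner and the miRBase release are not given in the sources used here, and the labels also describe a cRNA protocol for arrays. The 2 columns of the authors' deposited p-values were not used.

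The members, lists and comparisons were chosen with earlier results of these data known. Groups were taken from the sample titles. For CPM, each count was scaled to the library's clean reads, which the study gives. Of these, 78.4% and 76.7% were counted in the table. Counts under 3 were set to 3 before a ratio, which touched no member. With 1 library per group, edgeR's quasi-likelihood test could not be fitted. Exact Clopper-Pearson intervals were used instead, on the experimental library's share of a miRNA's reads, and arms were compared with Fisher's exact test. Intervals of differences between members and of arm changes are those of the exact conditional odds ratio, and those between families are normal approximations on the log scale. These methods treat reads as independent and cover counting error only. PCR reads are not independent molecules, so the intervals can be too narrow and the p-values too small even for counting error.

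Named by rule were all members, others with a member's seed, and the 3 nearest in log2 ratio. MiR-384-3p was added as the other arm of a seed match, and single cell type markers where they carry a list's value, both after values were seen. Other scalings (table sums, the study's reads similar to known miRNAs, unscaled counts, DESeq2's size factors, TMM), a pseudocount of 1, minimums of 10, 100 or no counts, log2 thresholds of 0.5 and 2, and an assumed coefficient of variation of 0.2 were tried. The intervals were tested on simulated Poisson counts of 390 miRNAs, where 144 of 153 miRNAs changed by 1 on the log2 scale with at least 30 counts had an interval on the right side of 0, as had 5 of 135 unchanged ones on either side. R 4.3.3 with edgeR 4.0.16 and DESeq2 1.42.0 and Python 3.11.15 with pandas 2.3.3, numpy 2.4.6, scipy 1.17.1 and matplotlib 3.10.9 were used.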

Additional observations from a re-analysis of the deposited data

How the results depend on the processing

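No paired analysis was possible because only 1 library per group exists, nor could replicates be left out. The other scalings lowered every log2 ratio alike, by 0.031 and 0.033 (table sums and matched reads), 0.090 (DESeq2's size factors), 0.18 (TMM) and 0.27 (unscaled). With clean reads, TMM and unscaled counts, in this order, all 285 miRNAs had a median of 0.10, -0.079 and -0.17 and the members one of 0.48, 0.30 and 0.21. The log2 ratio of the summed 5p arms stayed above 0 under all of them (0.066 to 0.34). That of the summed 3p arms fell within counting error with TMM (0.12) and unscaled (0.024). Unscaled, signs reversed for miR-30a-5p (-0.089) and for the arm sums of miR-30a (-0.040), miR-30b (-0.060) and miR-30c (-0.061). Members with an interval below 0 were 1 with the clean reads, 2 with TMM or DESeq2's size factors and 3 unscaled. The share of the 285 below 0 rose too, from 22.8% with the clean reads to 28.4% (DESeq2's size factors), 35.1% (TMM) and 41.1% (unscaled). With an assumed coefficient of variation of 0.2, 0 members passed in either direction, against 13.0% of the 285 that passed as higher and 2.11% as lower. A log2 ratio beyond 0.5 in size was reached by 6 of the 10 members and by 35.1% of the 285. The arm change of the family was -0.52 without miR-30a and 0.59 without miR-30c. For the cause of these changes nothing was tested beyond the construction of each alternative. The least read members (both arms of miR-30b, miR-30c-1-3p and miR-30e-3p) carry the widest intervals.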
